A study of Cicer arietinum with 8 samples.

Results

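The transcript response of chickpea (Cicer arietinum) shoots after 48 h of salt was measured on 3 arrays, 1 of the 8 stress comparisons and 3 of the 24 arrays of a study of drought, cold and high salinity. The arrays are those of the sample labelled as salt-treated shoots at 48 h, in which RNA of salt-treated shoots and RNA of control shoots were hybridised together to 2-colour cDNA arrays, so that the ratio of the dyes on a spot compares treated with control tissue. Treated RNA carried the dye Cy5 on arrays 1 and 2, and the dyes were swapped on array 3. The plants were of the genotype ICC 3996, grown in hydroponics to an age of 18 days. The treated plants then stood in modified Hoagland's solution of 1.0 times strength with 150 mM NaCl, and the controls stood in the same medium without the salt. Shoot tissue was stem and leaf. The labels give 5 plants per group and the tissue was pooled for extraction. The series design calls the 3 arrays biological replicates but does not say how the pools of the 3 arrays differ. The SEs and p-values below therefore measure a spread between arrays. For each probe this spread is estimated jointly over 21 arrays of 7 conditions, and is not that of these 3 arrays alone.

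Salt acts on a shoot in successive ways. In the medium it first lowers the water available to roots, and the shoot responds as it does to water shortage, with abscisic acid signalling, stomatal closure and slower growth. Sodium and chloride carried up in the xylem then build up in leaves, where they disturb potassium-dependent enzymes, photosynthesis and the balance of reactive oxygen, and plants respond with ion transporters, compatible solutes and protective proteins. Chickpea is among the more salt-sensitive grain legumes.

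Each array held 756 probes other than controls, each spotted 6 times. The files name the probes only by codes and give neither a gene description nor a sequence. The letters of the codes form 4 classes: 442 U codes, 117 CA codes, 156 LS codes and 41 LC codes. No gene or function is therefore named here, and the labelled tissue could not be checked against marker genes. A probe counted as above background in a channel if 50% or more of its 6 spots exceeded the mean of the local background by over 2 of its SDs. Between 370 and 476 probes per channel met this, with the lowest numbers in both channels of array 3. On all 3 arrays and in both channels 307 probes were above background, while 217 were above it in neither channel of any array. None of the 41 LC probes was above background anywhere, so the response described is that of U, CA and some LS probes. The brightest spot in any channel had a mean of 58746. The Cy5-10T control spots were bright in the Cy5 channel of each array (38.9 to 77.1 times background) and dim in its Cy3 channel (1.49 to 2.23 times), including array 3, where treated and control had exchanged dyes.

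After 48 h of salt, 56 probes were higher and 75 lower in shoots than in control shoots, of 419 tested (limma with Benjamini-Hochberg adjustment, adjusted p under 0.05). This is 31.3% of the probes tested, 13.4% higher and 17.9% lower. Rises reached further than falls in this fit. Of the called rises, 25 were at least 2-fold and 6 at least 4-fold, and of the falls 15 were at least 2-fold and 0 at least 4-fold. The median called rise was 1.85-fold and the median called fall 1.69-fold, and fitted log2 ratios over all tested probes ran from -1.35 to 3.58. In pooled bulk tissue, fewer cells of a type and less RNA per cell cannot be told apart.

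Most calls had the same sign on every array with a value. The calls were made from these same values, so the counts of signs are a description. Of the 51 rises with a value on 3 arrays, 48 were above 0 on all of them, and of the 56 such falls all 56 were below 0. The 3 exceptions were U102, U003 and U318, each below 0 on 1 array and chosen here after their values were seen. Among the 194 probes tested on 3 arrays and not called, 95 (49.0%) had the same sign 3 times. Both channels were above background on all 3 arrays for 108 of the 131 called probes. The count of calls fell from 131 to 59 without array 1 and to 51 without array 3, and it was 114 without array 2. Each of these fits also tested fewer probes, since a probe needs values on both of the arrays left. The count was 51 in a fit of these 3 arrays alone, where 3 arrays must give both the ratio and its spread. With median centring of each array in place of loess the split turned from 56 higher and 75 lower to 68 higher and 59 lower.

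U098 showed the highest ratio of all probes. Its background-subtracted signal was 50988 in treated shoots and 4097 in controls on array 1, 46658 and 4933 on array 2, and 45094 and 3000 on array 3. Its log2 ratios after normalisation were 3.36, 3.03 and 4.30. The treated channel was thus the brighter on every slide and under both dye orientations. The fitted ratio was 3.58 (SE 0.49, n = 3 arrays), a 12.0-fold rise with a limma adjusted p of 0.000233. Its treated signals were near the brightest of their channels, which before background subtraction were 58746, 56250 and 51393 on arrays 1, 2 and 3. The part of this ceiling in its ratio was not tested.

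U034, CA1126 and CA0426 followed, each at more than 4-fold. U034 had log2 ratios of 4.13, 2.16 and 2.86 on arrays 1, 2 and 3, CA1126 had 3.92, 2.51 and 2.59, and CA0426 had 3.91, 2.02 and 2.74. Array 1 was highest and array 2 lowest for each of them, and no array came near 0. The control signals were low but measurable: U034 lay between 736 and 956 in control shoots and between 5423 and 25008 in treated shoots. The fitted ratios were 3.15 (SE 0.46) for U034, 2.91 (SE 0.49) for CA1126 and 2.81 (SE 0.53) for CA0426, with limma adjusted p-values of 0.00052, 0.00118 and 0.00182. The arrays differed in the size of these rises, and the order of the 4 probes is not resolved, since the 95% interval was 2.55 to 4.62 for U098 and 1.67 to 3.95 for CA0426.

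U278 was next, at 2.50, 1.83 and 2.75 on the 3 arrays, with a fitted ratio of 2.41 (SE 0.19, adjusted p of 0.000233 in limma). It had 1 unflagged spot on array 3, and its control was above background on 2 arrays. U256 stood at 2.58, 1.41 and 2.29, fitted at 1.99 (SE 0.43). CA0562 stood at 2.54, 1.79 and 1.21, fitted at 1.78 (SE 0.19). Unlike the probes before it, CA0562 was lowest on the dye-swapped array 3. U280 varied little, with 1.34, 1.51 and 1.66 and a fitted ratio of 1.55 (SE 0.24). CA0877 and U025 closed the 10 largest rises among probes above 0 on 3 of 3 arrays, with fitted ratios of 1.39 and 1.33. With values on 2 arrays only, U110 was fitted at 2.12 (SE 0.36) and U096 at 1.68 (SE 0.38), and both were called, U110 being named here after its value was seen. CA0877 was a bright probe, at 9098 to 34507 in treated shoots against 3583 to 10272 in controls, and U025 a dim one, at 1636 to 4420 against 487 to 1181. The limma adjusted p-values of the 6 probes from U278 to U025 with 3 values ran from 0.000233 to 0.00303.

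**Figure D1:**
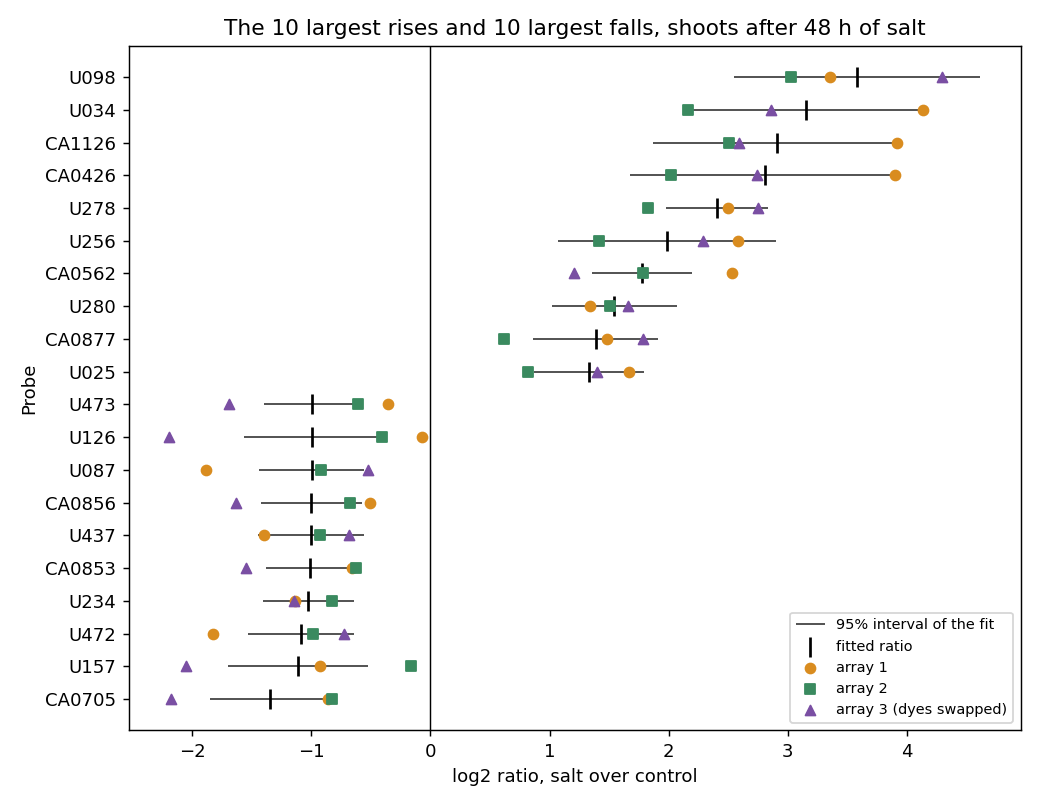
Log2 ratio of salt-treated over control shoots (x axis) for the 10 probes with the largest rises and the 10 with the largest falls among those called with the same sign on 3 of 3 arrays; coloured points are the arrays, black ticks the fitted ratios and bars their 95% intervals. Rises extend to 3.58 and falls to -1.35, array 2 is the lowest point of most rises, and the swapped array 3 lies far below the others for CA0705, U157, U126, U473, CA0856 and CA0853.

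In the same fit the falls were smaller and lay closer together. CA0705 had the largest, with log2 ratios of -0.86, -0.83 and -2.18 and a fitted ratio of -1.35 (SE 0.23, limma adjusted p of 0.00118), a 2.54-fold fall. Its signal was 22440 in treated and 34802 in control shoots on array 1, 20884 and 32109 on array 2, and 2459 and 16757 on array 3. Treated shoots were the dimmer on each slide, and the ratio was lowest on the slide with swapped dyes. U157 at -0.93, -0.16 and -2.05, and U126 at -0.08, -0.40 and -2.19, had the same shape. On arrays 1 and 2 alone neither was called: U157 was fitted at -0.59 (adjusted p of 0.189 in limma) and U126 at -0.44 (adjusted p of 0.278). CA0853, CA0856 and U473 also had their lowest value on array 3, at -1.55, -1.63 and -1.69 against -0.67 to -0.35 on arrays 1 and 2. The array 3 value of CA0853 rests on 1 unflagged spot. Without array 3, CA0856 was fitted at -0.71 and was not called (limma adjusted p of 0.0602), and neither were U256 among the rises, at 1.61 (adjusted p of 0.0602), and U350, at -0.59 (adjusted p of 0.0621).

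U472, U437, U087 and U234 did not have this shape. U472 stood at -1.83, -0.99 and -0.72 and was fitted at -1.09 (SE 0.21), and U087 stood at -1.89, -0.92 and -0.53 and was fitted at -0.999 (SE 0.20). In both, array 1 was lowest and array 3 nearest to 0. U437 had the same order, at -1.40, -0.93 and -0.69. U234 was the most even, at -1.14, -0.83 and -1.14 with a fitted ratio of -1.03 (SE 0.18, adjusted p of 0.00127 in limma). Its value on array 3 rests on 1 unflagged spot. Over all 56 falls with 3 values, array 1 was lowest in 27, array 2 in 4 and array 3 in 25.

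The arrays differed in the size of the response more than in its direction. The SD of the ratios over probes was 0.911 on array 1, 0.575 on array 2 and 0.806 on array 3. The median called rise was correspondingly 1.28 on array 1, 0.619 on array 2 and 0.96 on array 3, and the median called fall was -0.856, -0.574 and -0.708. Array 2 was lowest of the 3 in 35 of the 51 rises and highest in 0. Across probes the ratios of arrays 1 and 2 correlated at 0.805, those of arrays 1 and 3 at 0.673 and those of arrays 2 and 3 at 0.682. These are Pearson's r over probes, which share a slide and are not independent replicates. The 6 spots of a probe on 1 array varied far less than the arrays did, with a median SD of 0.102 against 0.315 between arrays.

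**Figure D2:**
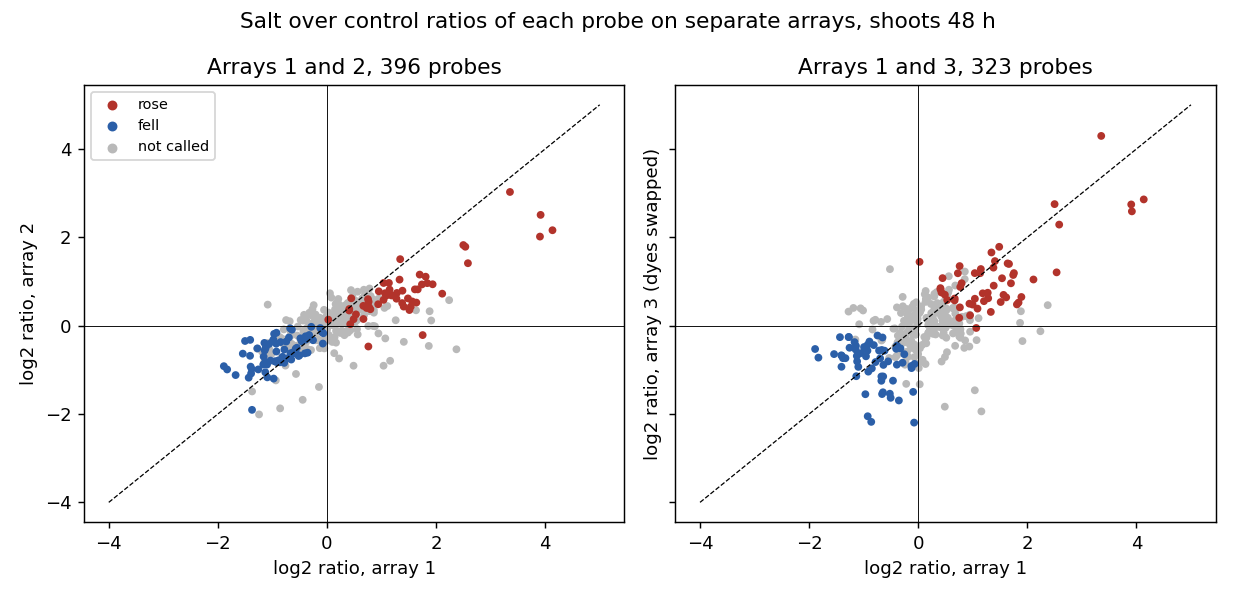
Log2 ratio of each tested probe on array 1 (x axes) against array 2 (left) and array 3 with swapped dyes (right), red for probes that rose, blue for those that fell and grey for those not called; the dashed line marks equal values. Points on the left lie along a line flatter than equality, with an SD of 0.575 on array 2 against 0.911 on array 1, and the cloud on the right is wider, with r of 0.673 against 0.805.

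The classes of codes contributed unequally. Of the 276 U probes tested, 37 rose and 50 fell, which is 31.5%. Of the 94 CA probes tested, 19 rose and 19 fell, or 40.4%. LS probes were mostly dim: 13 of 156 were above background in both channels on 3 arrays, 77 were above it nowhere, and 49 were tested. Among those 0 rose and 6 fell, or 12.2%, against 31.3% over all tested probes, and the highest fitted LS ratio was 0.98. No test was made of the difference between classes. Of the 49 LS probes tested, 36 had values on arrays 1 and 2 only. Over all classes, 20.3% of the probes tested on 2 arrays were called, against 35.5% of those on 3 arrays. The LS and CA probes differ in brightness as well as in code. The parts of brightness and of missing arrays were not tested.

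The 6 LS falls were LS0381, LS0691, LS0625, LS0493, LS0418 and LS0994. LS0381 stood at -1.67 and -1.12 on arrays 1 and 2 and was fitted at -1.29 (SE 0.22, limma adjusted p of 0.00358). LS0691 stood at -1.37 and -1.91 and was fitted at -1.06 (SE 0.31, adjusted p of 0.0219 in limma). None of the 6 had a value on array 3, so all of them rest on a single dye orientation, and the dye term for these probes came from the other conditions. The plain mean of the 2 arrays ran from -1.64 to -0.66 over the 6 probes, and the fitted ratios from -1.29 to -0.52. Other probes lacked array 3 too. Of the 118 probes tested on 2 arrays, 95 had arrays 1 and 2, and of the 15 called among them 14 fell and 1 rose. The largest falls of U probes with 2 values, U459 at -1.39 and -1.08 and U222 at -1.50 and -0.35, were of this kind, fitted at -1.21 and -1.16.

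Some probes were seen in 1 channel only and have no ratio to test. With 9 probes above background in treated shoots on all 3 arrays and in controls on none, against 1 probe with the reverse, these added mostly to the rises. U434 had normalised log2 intensities of 12.83, 11.80 and 11.02 in treated shoots and 7.33, 6.99 and 8.84 in controls, where it was not well above background. Against the dimmest signal that still counted as above background, U434 was at least 7.14-fold higher in treated shoots. By the same bound CA0697 was at least 4.08-fold and U166 at least 3.56-fold higher. The 1 probe seen in controls alone was U386, at least 2.73-fold lower in treated shoots. Each bound compares channels after loess and quantile scaling of the arrays' mean brightness and is open to dye bias.

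For some probes the fitted interval was narrow. The 95% interval of the fitted ratio lay within 1.5-fold of no change for 74 probes and within 2-fold for 241. The narrowest were CA0713, CA1074 and U109. CA1074 stood at -0.05, 0.04 and -0.08, fitted at -0.05 with an interval of -0.28 to 0.18, and CA0713 at -0.10, -0.08 and -0.20, with an interval of -0.32 to 0.06. These 2 were among the brightest probes, with signals of 30862 to 52853 in both channels, near the brightest signals on the slides (51393 to 58746 over the channels), and the part of this ceiling in their narrow intervals was not tested. With median centring the interval of CA0713 reached 0.65 and that of CA1074 reached 0.69, both beyond 1.5-fold, while U109, a probe of middling brightness at 3184 to 10874, stayed within 1.5-fold under all 18 alternative settings run. At the other end, 80 probes that were not called had an interval that reached 2-fold. CA1173 and U026 had fitted rises and LS0287 and LS0412 fitted falls of at least 2-fold, all 4 on arrays 1 and 2 only and none past the threshold. Their fitted ratios include a dye term that came from the other conditions. CA1173 stood at 1.41 and -0.37 on the 2 arrays, and its fitted 1.43 lies above both. In the authors' deposited log2 ratios CA1173 was -0.89 and U026 -0.53, both below 0, while LS0287 was -2.50 and LS0412 -2.32.

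The authors' deposited table of log2 ratios, made from the same arrays, was read as treated over control because its values rose with the ratios computed here, so matching signs are not independent of that reading. Over all 415 tested probes with a value, 327 had the same sign in the authors' deposited table. Among the called probes the authors' deposited table had the same sign for 51 of the 56 rises and all 75 falls. That column has a median of -0.253, so that it is centred below 0, and the shift in its logarithm is unknown. Sizes differed in both directions for falls. In the authors' deposited table U119 was -3.50 and U234 -2.17, against fitted ratios of -1.04 and -1.03, while CA0705 was -0.58 there against -1.35 and U472 -0.57 against -1.09. The largest rises lay closer, with U098 at 3.45 in the authors' deposited table against 3.58. There the fall of U119 was as large as the rise of U098, so the further reach of rises is that of the fit used here.

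The comparison with shoots after 24 h asks how the response developed over the second day. The 24 h shoots were of the same genotype, age, medium and NaCl concentration, with their own controls and 3 arrays. Only CA0562 passed the adjusted threshold, 1 of 383 probes tested in both (0.261%), while 75 had an unadjusted p under 0.05 in limma. The median SE of a difference was 0.276, so probes that were not called may still differ. CA0562 stood at -0.08 and 0.05 on arrays 2 and 3 at 24 h, with no value on array 1, and at 2.54, 1.79 and 1.21 at 48 h. The groups did not overlap, but the probe was chosen by this difference, so this is a description. The fitted ratio was -0.02 at 24 h and 1.78 at 48 h, and the difference was 1.79 (SE 0.30, 95% interval 1.14 to 2.45, adjusted p of 0.0257 in limma). Both 24 h arrays with a value were quantified on the same day as the 48 h arrays. The call was lost in 7 of 18 alternatives, among them the fit without array 2 of the 48 h shoots, with differences between 1.09 and 1.89 where it was lost.

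The response at 48 h had mostly the direction seen at 24 h. Of the 55 rises with a ratio at 24 h, 49 were above 0 there, with a median of 0.518 against 0.9 at 48 h. Of the 73 falls, 14 were above 0 at 24 h, and their median was -0.266 against -0.754. These rises and falls were chosen by their calls at 48 h, which favours larger ratios at 48 h, so the medians are a description. Over all 383 probes 196 were above 0 at 24 h, 250 had the larger ratio in size at 48 h, and the SD of the fitted ratios was 0.693 at 48 h against 0.486 at 24 h. Across the 383 probes the 2 sets of fitted ratios correlated at 0.697, as a description over probes that share slides and a common dye term.

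Called at both times in the same direction were 8 rises and 8 falls, where 2.35% of the 383 probes were called higher and 2.61% lower at 24 h. The rises were U098, U278, U096, U280, CA0877, U182, U020 and U246. U098 went from 1.94 at 24 h to 3.58, U278 from 2.04 to 2.41 and U280 from 1.11 to 1.55, and none of these steps passed the test. U182 was nearly level, at 1.20 and 1.24. The falls were U042, U219, U082, U076, U412, U491, U334 and U119. They were moderate at both times, from -0.74 to -0.49 at 24 h and from -1.04 to -0.41 at 48 h. U256 and U025, among the 10 largest rises at 48 h, had fitted ratios of 0.67 and 0.21 at 24 h and were not called there, nor was their difference between the times.

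**Figure D3:**
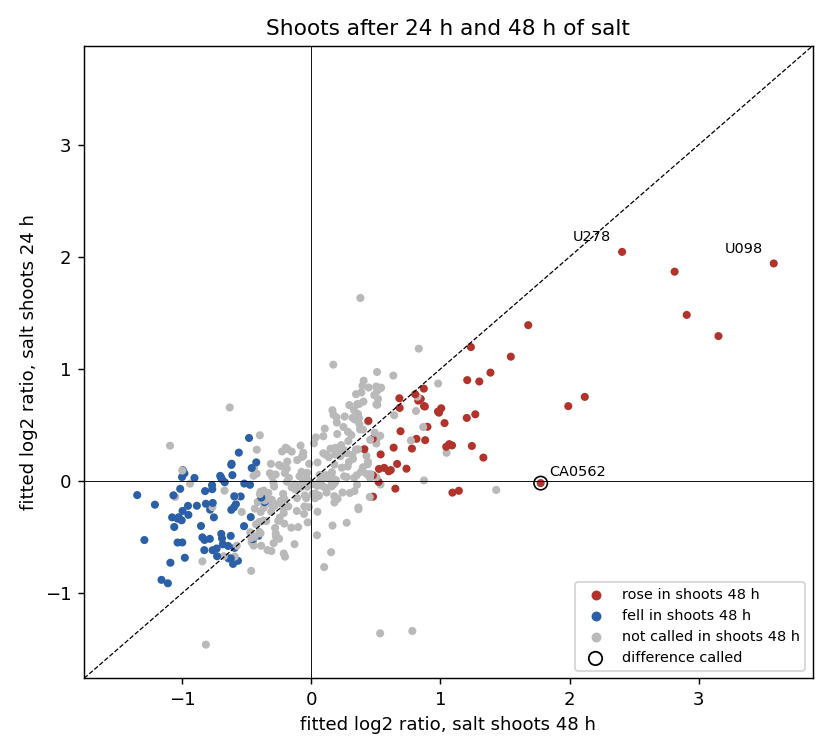
Fitted log2 ratio in shoots after 48 h (x axis) against 24 h (y axis) for the 383 probes tested at both times; red and blue mark probes that rose or fell at 48 h, and the ring marks the 1 probe whose difference was called. Most coloured points lie between the x axis and the dashed line of equal values, and CA0562 lies on the x axis at 1.78.

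Roots of plants under the same treatment at the same time differed from shoots in many probes. Of 236 probes tested in both tissues, 61 (25.8%) had a different ratio, 31 higher and 30 lower in roots. The control channels of roots were dim, with 162, 335 and 243 probes above background on arrays 1, 2 and 3. The treated root channels had 443, 404 and 406. A ratio needs both channels, so these are the probes bright enough in both tissues and in the root controls. U126, U350 and CA0554 showed the largest differences towards roots. U126, which fell in shoots, stood at 2.13 and 1.26 on the 2 root arrays with a value, a difference of 2.69 (SE 0.42, limma adjusted p of 0.000244). U350 stood at -0.89, -0.79 and -0.36 in shoots and at 1.73 and 2.40 in roots, a difference of 2.67 (SE 0.23). CA0554 was not called in shoots, at 1.07, -0.29 and -0.33, and was 2.32, 2.38 and 3.60 in roots. In each of the 3 the root and shoot arrays did not overlap, but the probes were chosen by this difference, so this is a description.

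U098, U135 and U034 differed most in the other direction. U098 stood at 0.50, 1.85 and -0.35 in roots, against 3.03 to 4.30 in shoots, a difference of -2.89 (SE 0.68, adjusted p of 0.00449 in limma). U135 stood at -2.41, -1.38 and -1.38 in roots and at 0.02, 0.14 and 1.44 in shoots, a difference of -2.26 (SE 0.28). Its rise in shoots rested on the dye-swapped array: without array 3 it was fitted at 0.49 and was not called (limma adjusted p of 0.204). U034 differed by -2.02 (SE 0.64, adjusted p of 0.029), with 0.22, 1.49 and 1.37 in roots, and this call was lost in 5 alternatives, among them the fit without array 1 of shoots, where the difference was -1.36. The count of 61 was 32 without array 2 of roots and 35 without array 3 of roots, where 120 and 119 probes were tested.

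A set of probes was called in opposite directions in the 2 tissues. U135, CA0185, U399, CA0043 and CA0764 rose in shoots and fell in roots. CA0764, for instance, stood at 0.41, 0.38 and 0.82 in shoots and at -1.68, -1.87 and -0.44 in roots. The reverse held for 11 probes, which fell in shoots and rose in roots: U126, U350, U349, U444, U473, U317, CA0721, U496, U346, U062 and U343. U349 was at -0.81, -0.71 and -0.44 in shoots and at 1.41 and 1.87 in roots, and U444 was at -1.10, -0.88 and -0.93 in shoots and at 1.41 and 0.77 in roots. Of the 31 probes higher in roots 17 were called falls in shoots, and of the 30 lower in roots 12 were called rises in shoots, the rest being uncalled in shoots. The contrast and the shoot calls use the same 3 shoot arrays, so these counts are a description. Over all 236 probes tested in both tissues, 22.5% were called higher and 18.6% lower in roots. Of the 47 shoot rises among them, 16 were called higher in roots, CA1126 at 2.18 and CA0562 at 1.93 among them, and 5 lower. Of the 31 shoot falls, 6 were called lower in roots, a share near that of all probes, and 11 higher. No test of these overlaps was made.

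**Figure D4:**
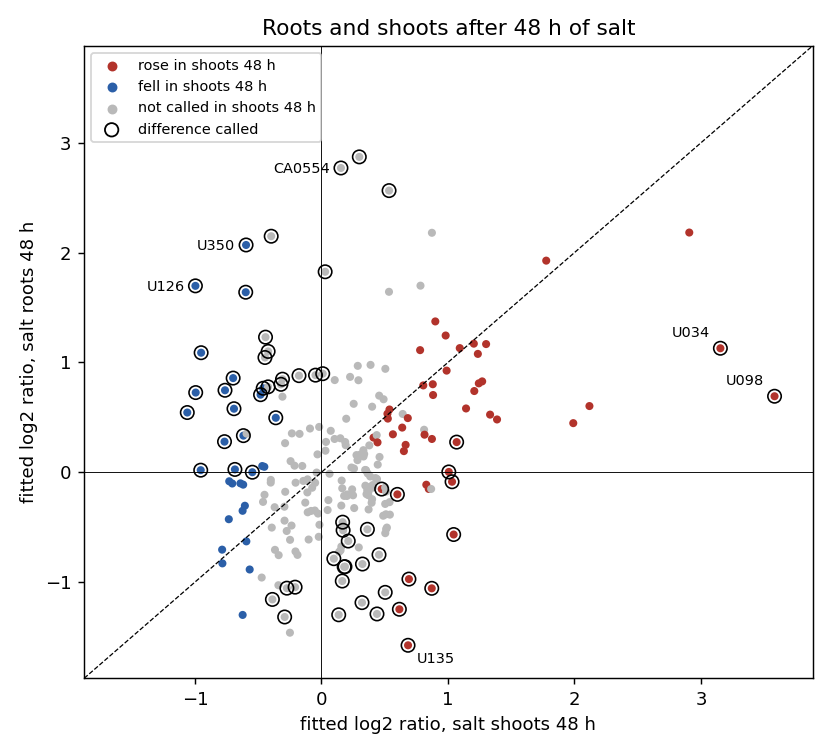
Fitted log2 ratio in shoots (x axis) against roots (y axis) after 48 h of salt for the 236 probes tested in both; colours give the call in shoots and rings the 61 probes whose difference was called. The upper left holds blue ringed points that fell in shoots and rose in roots, such as U126 and U350, and U098 and U034 lie far to the right, below the dashed line of equal values.

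Drought leaves offered a second water-limiting stress in green tissue. They came from older plants of the same genotype in pots, and stress, age, growth system, day of image quantification and the software's threshold for empty spots all differ between the 2 sets of arrays and cannot be told apart. Of 385 probes tested in both, 42 (10.9%) differed, 15 higher and 27 lower in salt shoots. Of the 15, 14 were called rises in salt shoots, and of the 27, 21 were called falls, where contrast and call again rest on the same shoot arrays. In drought leaves themselves 0 of these 385 probes passed the adjusted threshold in limma, in either direction, and 69 had an unadjusted p under 0.05, so the salt shoot calls cannot be sorted by a drought call. The SD of the fitted ratios was 0.669 in salt shoots and 0.359 in drought leaves, and their correlation across probes was 0.322.

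U098, CA0426 and CA1126 stood furthest above drought leaves. In drought leaves U098 was at -0.17, 0.53 and 0.69, CA0426 at -0.26, -0.36 and -0.09, and CA1126 at 0.43, 0.15 and -0.19, all far below the 2.02 to 4.30 of the shoot arrays. The differences were 3.21 (SE 0.68), 3.13 (SE 0.74) and 2.87 (SE 0.68), with limma adjusted p-values of 0.0142, 0.0184 and 0.0184. U034, the second largest rise in shoots, was at 0.15, 1.01 and 1.97 in drought leaves, and its difference was not called. LS0691, U119 and U472 stood furthest below. U119 was at 0.18, -0.01 and 0.52 in drought leaves and at -1.33 and -0.74 in salt shoots, a difference of -1.32 (SE 0.19, adjusted p of 0.00588).

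The probes that fell in shoots at both times stood apart from drought leaves as a group. All 8 were tested and all 8 differed from drought leaves, with fitted drought ratios from 0.188 to 0.556. U042 was at -0.41 in salt shoots and 0.56 in drought leaves, and U412 at -0.62 and 0.42. Of the 8 rises at both times 7 were tested and 5 differed. These counts stand against 10.9% over all probes tested, and the 8 probes were chosen by their fall in the same salt arrays, so the count is a description. The 42 calls fell to 2 without array 1 of salt shoots, to 18 without array 3, and to 3 and 8 without array 1 and array 3 of drought leaves. Of the 6 named probes, U119 kept its call without each array in turn wherever enough arrays were left to test it. It had salt shoot values on arrays 1 and 3 only and could not be tested without either of them. Its call was lost with flagged spots kept, with single-channel flags ignored and in a fit of these conditions alone.

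**Figure D5:**
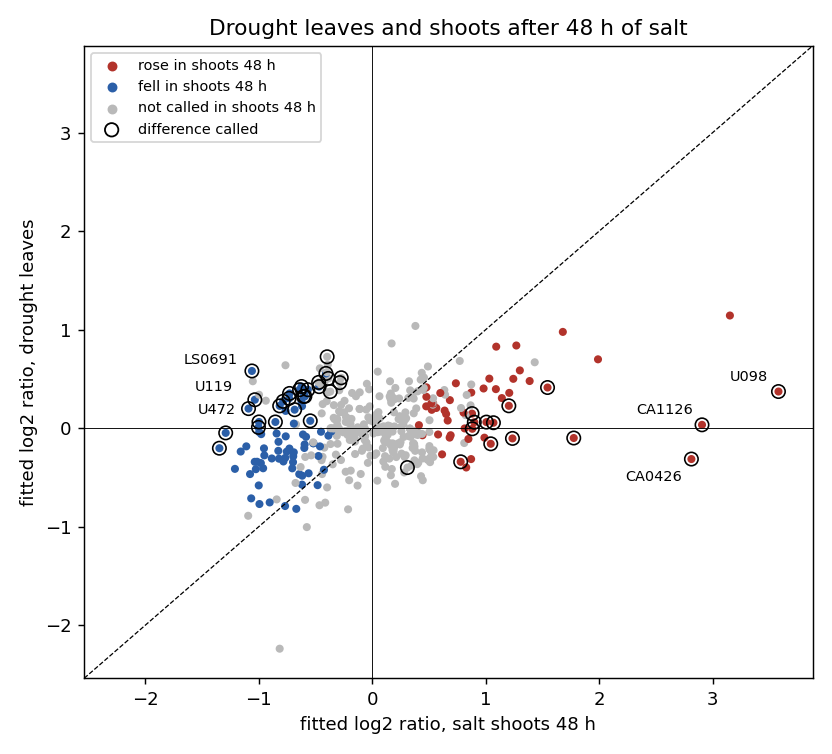
Fitted log2 ratio in salt shoots after 48 h (x axis) against drought leaves (y axis) for the 385 probes tested in both; colours give the call in salt shoots and rings the 42 probes whose difference was called. The points spread along the x axis, to 3.58 for U098, and stay closer to 0 on the y axis, and the ringed blue points lie mostly above the x axis.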

How the data were processed

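Each deposited intensity is the mean brightness of a spot, or of its local background, in 1 channel. The authors quantified the intensities in ImaGene 5.5 and let it flag empty and poor spots, per the file headers. The deposited log2 table was made by the authors from background-subtracted, LOWESS-normalised ratios with flagged spots omitted, per the series design. Its column for these arrays was read as treated over control because it rose with the ratios computed here (r of 0.662 over the 415 tested probes with a value). Its centring and the shift in its logarithm are not stated.

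Here, background was corrected with normexp (offset 50), each array was loess-normalised with controls and flagged spots at weight 0, spots flagged in either channel were dropped, and a probe's remaining spots were averaged. A limma 3.58.1 model (R 4.3.3, lmFit and eBayes) covered 21 arrays of 7 conditions with 1 coefficient per condition and 1 common dye term. Conditions were compared as contrasts in that model. Salt roots at 24 h (3 arrays) were left out because 99.74% to 100% of their spots shared a pixel SD, against 0% within and across all other conditions. A probe needed values on at least 2 arrays of each condition compared, and adjusted p-values are Benjamini-Hochberg over the probes of a comparison. The steps were tested on simulated data. Array number and signal over background limit the precision.

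Probes were named by rule: the 10 largest rises and falls with 1 sign on 3 arrays, the 2 largest of each code class, the 3 largest differences per direction in each contrast, the 3 highest bounds among probes seen in 1 channel and the 3 narrowest intervals. Others named belong to counted sets. Gene lists by description words matched no probe, so code classes stood in. Comparisons, lists and tests were chosen with earlier results of these data known. Alternatives covered background, normalisation, flags, spots, dye, weights, blocks, left-out arrays and the methods' t-test.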

Additional observations from a re-analysis of the deposited data

Results flagged for a closer look

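The differences below are those of named probes whose ratio in shoots after 48 h of salt differed from another condition by a contrast in limma. Against shoots at 24 h, CA0562 differed by 1.79.

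Roots minus shoots at 48 h gave 2.69 for U126, 2.67 for U350 and 2.62 for CA0554, and -2.02 for U034, -2.26 for U135 and -2.89 for U098. The value of U126 rests on 2 root arrays, and its fall in shoots lies mainly on array 3.

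Salt shoots minus drought leaves gave 3.21 for U098, 3.13 for CA0426 and 2.87 for CA1126, and -1.29 for U472, -1.32 for U119 and -1.64 for LS0691. The salt and drought arrays also differ in plant age, growth system and day of image quantification, which cannot be told apart. LS0691 has shoot values in 1 dye orientation only.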

How the results depend on the processing

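The count of 131 changed probes was 121 to 161 under the alternatives other than these: scale normalisation gave 86, a fit of these arrays alone 51, the series design's fold filter 98, and the methods' t-test 80 before and 1 after Benjamini-Hochberg. The 1 probe left by the t-test was CA0861, which was not among the 131 (limma adjusted p of 0.0708). Leaving out single arrays gave counts of 51 to 114. The single call against 24 h shoots became 0 with no background correction, median centring, scale normalisation, flagged spots kept, single-channel flags ignored, at least 3 unflagged spots or a fit of the compared conditions alone, and 7 with array weights, and was 0 to 1 without single arrays. The 61 differences from roots became 200 with flagged spots kept and 145 with single-channel flags ignored, and 32 to 56 without single arrays. The 42 differences from drought leaves became 15 with no dye term, 8 in a fit of those conditions alone, 74 with array weights and 22 with day as a block, and 2 to 45 without single arrays. Of 44 results on named probes, 19 kept their call in every alternative run. CA0554, uncalled in shoots, changed sign: leaving out single arrays gave -0.31 to 0.46. These causes were not tested beyond the fewer arrays that some fits hold.

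The array numbers come from file names and do not pair samples. Residuals of equally numbered arrays correlated at -0.09, 0.30 and 0.09 with 24 h shoots and below 0 with roots. With the array number as a replicate block the counts were 122, 1, 60 and 36.

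Signal over background limited what was measured: 337 of 756 probes were not tested, array 3 gave the fewest ratios (340), and probes with values on arrays 1 and 2 alone lack the swapped dye.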
